A study of Mus musculus with 25 samples.

Results

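Desmosomes and hemidesmosomes are the junctions that anchor the keratin filaments of epithelial cells, desmosomes to the neighbouring cell and hemidesmosomes to the basement membrane. Described here are 10 genes of these junctions, taken by gene symbol from the array annotation, out of 18194 genes measured. They are the plakins Dst, Dsp and Plec, the desmosomal cadherins Dsg2 and Dsc2, the armadillo proteins Jup, Pkp2 and Pkp4, and the integrin chains Itga6 and Itgb4. Together they had 28 probe sets, of which 23 were expressed, meaning a mean log2 level over all arrays above 3.27, the median of all probe sets. The 10 genes each had at least 1 expressed probe set, so none was lost to a filter on dim genes. Dst, Pkp4 and Dsg2 had been singled out by the study from these same mice, so their direction here is not independent evidence.

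RNA of salivary glands was measured on 25 Affymetrix Mouse Genome 430 2.0 arrays, 1 array per mouse, with 5 mice at each of 5 ages, 4 weeks apart, the youngest at 4 and the oldest at 20 weeks. All were male C57BL/6.NOD-Aec1Aec2 mice, a strain that develops a disease like Sjögren's syndrome and carries the Aec1 and Aec2 regions of the NOD mouse, on chromosomes 3 and 1, in a C57BL/6 background. No group was treated, all groups carry both regions, and the youngest mice served as the reference. Each sample joined pieces of the submandibular, sublingual and parotid glands after removal of their lymph nodes, and the mice of an age came from more than 1 litter. In such bulk tissue, fewer cells of a type and less RNA per cell cannot be told apart.

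In a desmosome the cadherins (desmogleins and desmocollins) bridge the gap between cells, plakoglobin (Jup) and the plakophilins bind their tails inside the cell, and desmoplakin (Dsp) ties this plaque to keratin. In a hemidesmosome the integrin made of the Itga6 and Itgb4 chains binds laminin in the basement membrane, and plectin (Plec) and the epithelial form of dystonin (Dst, also known as BPAG1) tie it to keratin. Dystonin has further forms, built from other exons and promoters of the same gene, that link actin and microtubules in nerve and muscle. In salivary glands these junctions hold acinar, ductal and myoepithelial cells together and to their basement membrane.

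Dst was the member with the largest change. Its level rose from 4 to 8, 12 and 16 weeks, by 6.88-fold at 12 weeks, and this was carried by the single expressed probe set of its 4. Pkp4 and Pkp2 rose at 12 weeks. With all 25 arrays the other 7 members passed at none of the ages, and no member fell.

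The promoters of Dst and Pkp4, the members with the largest changes, are shown because Dst is transcribed from separate starts. RefSeq (GRCm38.p6) places Dst at chr1:33907888-34308662, over 400.8 kb, on the chromosome that carries Aec2, and Pkp4 at chr2:59160850-59355205. The borders of the NOD regions were not used here. Of the 10 members, 4 matched the promoter table (Dst and Pkp4 with 2 starts each, Jup and Dsp with 1 each). The 250 bases before each start of Dst and Pkp4 are given 5′ to 3′ on the strand of the gene, with GC boxes (GGGCGG) and E-boxes (CAGGTG), on either strand, in capitals:
Dst start 1, chr1:34011345-34011594, plus strand: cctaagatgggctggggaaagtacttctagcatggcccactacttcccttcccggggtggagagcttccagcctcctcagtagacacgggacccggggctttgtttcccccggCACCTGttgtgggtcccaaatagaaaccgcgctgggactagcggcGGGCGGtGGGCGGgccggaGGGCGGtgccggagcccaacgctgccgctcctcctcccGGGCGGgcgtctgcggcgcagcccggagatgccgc
Dst start 2, chr1:34160010-34160259, plus strand: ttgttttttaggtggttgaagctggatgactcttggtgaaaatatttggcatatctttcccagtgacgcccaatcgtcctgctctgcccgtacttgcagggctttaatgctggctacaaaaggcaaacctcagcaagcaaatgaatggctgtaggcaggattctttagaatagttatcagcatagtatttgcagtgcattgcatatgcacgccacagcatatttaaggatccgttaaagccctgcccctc
Pkp4 start 1, chr2:59160600-59160849, plus strand: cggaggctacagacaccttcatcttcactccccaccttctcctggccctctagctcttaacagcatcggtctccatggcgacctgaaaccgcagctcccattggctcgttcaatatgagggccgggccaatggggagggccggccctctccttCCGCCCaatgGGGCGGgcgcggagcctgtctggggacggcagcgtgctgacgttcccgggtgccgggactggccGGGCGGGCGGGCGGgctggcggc
Pkp4 start 2, chr2:59161619-59161868, plus strand: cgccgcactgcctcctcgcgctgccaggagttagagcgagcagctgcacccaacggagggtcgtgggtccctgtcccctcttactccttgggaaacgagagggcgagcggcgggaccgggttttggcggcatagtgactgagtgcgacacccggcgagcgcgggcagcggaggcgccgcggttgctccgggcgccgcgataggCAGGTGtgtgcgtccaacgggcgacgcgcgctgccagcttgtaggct

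The starts of Dst differ in base composition. The window before start 1 was 68.8% G and C, above 89.0% of the 32851 windows of this length in the table, and held 4 GC boxes and 1 E-box. The window before start 2 was 45.2% G and C, above 24.5% of windows, and held none of the motifs searched. Of the Pkp4 windows, the first (68.4% G and C) held 5 GC boxes, of which the 3 nearest the start overlap one another, and the second (70.0%) held 1 E-box. Dsp (72.4%) had 4 GC boxes and Jup (62.0%) had 2. AP-1 sites (TGANTCA) and TATA boxes (TATAAA) were searched on both strands too and were in none of these windows. Over all windows, 32.7% held a GC box, 17.2% an E-box, 12.4% a TATA box and 6.7% an AP-1 site. Probe positions were not used here, so no probe set is assigned to a start.

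The array of mouse 3 at 20 weeks stood apart. Its median correlation with the other 20-week arrays was 0.887, against at least 0.974 for every other array and its own age, and the difference between its 3′ and 5′ Gapdh probe sets was 3.87 on the log2 scale, against 0.046 to 1.68 elsewhere. It was the lowest of the 20-week arrays for 9 of the 10 members, and it adds to the shared estimate of the spread in every comparison, so results are given with and without it.

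Dst had 4 probe sets, all named for this gene alone. For probe set 1423626_at, the log2 levels at 4 weeks were 6.06, 5.64, 4.71, 3.89 and 3.90 in mice 1 to 5. At 8 weeks they were 5.15, 6.60, 7.21, 7.79 and 7.94. At 12 weeks they were 7.52, 7.73, 7.51, 7.59 and 7.75. The 12-week mice all lay above the highest 4-week mouse, between 7.51 and 7.75, while the 8-week mice overlapped the 4-week mice through mouse 1. At 16 weeks the levels were 7.75, 6.21, 7.04, 7.04 and 7.52, all above the 4-week mice. At 20 weeks they were 6.67, 6.58, 4.63, 7.23 and 6.11, of which mouse 3 alone lay within the 4-week range. The lowest levels of Dst outside 12 weeks were on arrays with a large difference between the 3′ and 5′ Gapdh probe sets, a sign of RNA quality. At 4 weeks that difference was 0.49, 0.61, 1.22, 1.66 and 1.68 in mice 1 to 5, with the lowest Dst levels in mice 4 and 5. The lowest Dst mouse at 8 weeks (1.58), at 16 weeks (1.21) and at 20 weeks (3.87) had the highest Gapdh difference of its age, while at 12 weeks it spanned only 0.50 to 0.83. This order did not hold for every mouse. Mouse 4 at 8 weeks had a Gapdh difference of 1.47 and a Dst level of 7.79. Mouse 3 at 8 weeks had the lowest difference of its age (0.22) and a Dst level of 7.21. The actin probe sets gave another order. Their 3′ less 5′ difference was 2.18 to 2.67 in the 4-week mice and 2.78 to 3.02 in the 12-week mice. In the lowest Dst mouse it was 2.21 at 4 weeks and 2.27 at 8 weeks, neither the highest of its age. At 16 weeks (3.68) and 20 weeks (5.36) it was the highest. For the transferrin receptor it was 0.78 to 0.89 at 4 weeks and 0.68 to 0.88 at 12 weeks. The means of Dst were 4.84 ± 0.99 (SD, n = 5) at 4 weeks, 6.94 ± 1.13 at 8, 7.62 ± 0.11 at 12, 7.11 ± 0.59 at 16 and 6.24 ± 0.99 at 20 weeks.

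The other 3 probe sets of Dst stayed at the floor of the array. 1421117_at had means between 2.38 and 2.63 at the 5 ages, 1421276_a_at between 2.33 and 2.45, and 1450119_at between 2.09 and 2.13. With all arrays none of the 3 passed at any age. The nearest, 1421117_at at 12 weeks, had a log2 fold change of 0.19 (adjusted p = 0.446), from levels of 3.18 and 2.85 in mice 2 and 3 beside 2.36 to 2.37 in the other 3. Being below the median of all probe sets, they give no level for the transcripts they target, and a test between the probe sets of Dst was not possible with a single expressed one. The annotation gives RefSeq transcripts as the targets of these 3, and a sequence of another kind as that of 1423626_at. Which form of dystonin 1423626_at reads was not determined, so its rise is not assigned to the epithelial form.

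**Figure D1:**
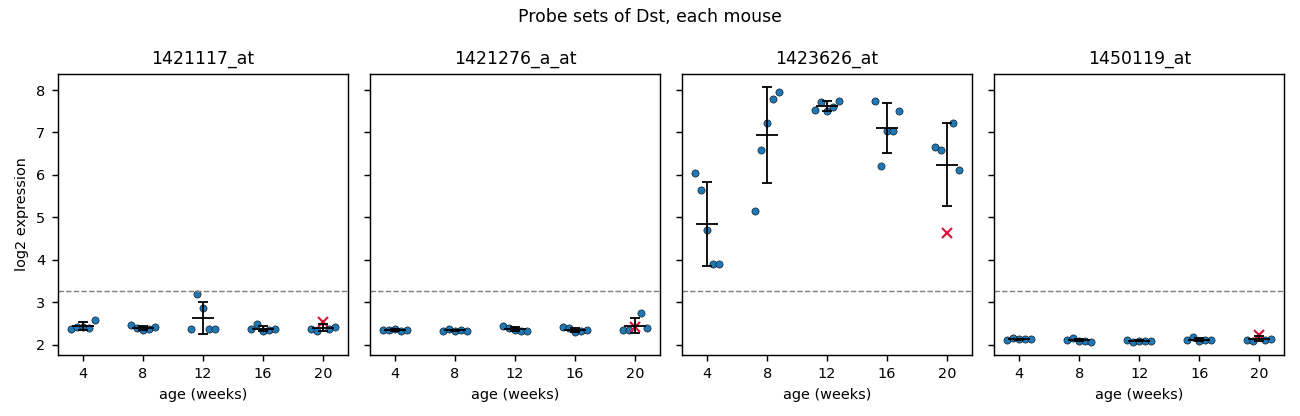
Log2 expression (y axis) of the 4 probe sets of Dst in each mouse against age in weeks (x axis), with mean and SD of the 5 mice as bars, the median of all probe sets (3.27) as a dashed line and mouse 3 at 20 weeks as a cross. Only 1423626_at lies above the line, with age means of 4.84, 6.94, 7.62, 7.11 and 6.24.

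Against 4 weeks, Dst rose by 2.10 on the log2 scale at 8 weeks (SE 0.52, adjusted p = 0.0342 from limma over all genes), by 2.78 at 12 weeks (95% interval 1.70 to 3.86, adjusted p = 0.00271) and by 2.27 at 16 weeks (adjusted p = 0.0158). At 20 weeks the difference was 1.40 (adjusted p = 0.196), and 1.81 without mouse 3 (SE 0.50, adjusted p = 0.0267). As fold changes the values were 4.29, 6.88, 4.83 and 2.65. All 4 comparisons share the same 4-week mice. With the Gapdh difference of each array as a covariate and mouse 3 of 20 weeks left out, a setting chosen after the values were seen, the log2 fold changes were 1.93, 2.18, 1.96 and 0.91 (adjusted p = 0.00181, 0.00108, 0.00127 and 0.277), so the 20-week call without mouse 3 was lost. The 8-week call is the weakest of these: it was lost when any of 4-week mice 3, 4 or 5 or of 8-week mice 2 to 5 was left out, with adjusted p from 0.0506 to 0.123. At 20 weeks Dst was lower than at 12 weeks by a log2 difference of -1.38, which did not pass (SE 0.52, adjusted p = 0.195).

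At 12 weeks Dst, read by its 1 expressed probe set, increased more than each of the other 9 members. The log2 level of Dst less that of the other member, compared between the 5 mice of 12 weeks and the 5 of 4 weeks, differed by 0.93 for Pkp4, 1.47 for Plec, 1.75 for Jup, 1.995 for Itgb4, 2.04 for Dsg2, 2.05 for Dsp, 2.20 for Pkp2, 2.56 for Dsc2 and 2.92 for Itga6. In each of the 9 the mice of both ages did not overlap, and the two-sided exact permutation test gave p = 0.0079, the smallest that 252 divisions allow (adjusted over the 9, 0.0079). Dst was compared in this way with its change already known, so these p-values do not cover its choice as the largest. With its 3 dim probe sets averaged in, its 12-week change was 0.74. That is below Pkp4 (1.86), Jup (1.03), Itgb4 (0.79) and Dsg2 (0.75), whose probe sets were all expressed.

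Counted over the members, 1 of 10 rose at 8 weeks (Dst), 3 at 12 weeks (Dst, Pkp4 and Pkp2), 1 at 16 weeks (Dst) and 0 at 20 weeks. Over all 18194 genes the shares that rose were 1.48%, 5.66%, 1.71% and 1.14%. Nearly all of these genes had an expressed probe set, as the 10 members do. Of the 11696 such genes, 268, 1009, 310 and 206 rose. No member fell at any age, where 0.78%, 1.36%, 1.68% and 1.52% of all genes fell. At an unadjusted p under 0.05, 3, 5, 3 and 1 members were past the threshold at 8, 12, 16 and 20 weeks, beside 14.0%, 20.7%, 14.4% and 12.4% of all genes. Of the genes with an expressed probe set, 19.8%, 29.7%, 20.1% and 18.0% were. The median log2 fold change of the 10 was 0.77 at 8 and at 12 weeks, 0.35 at 16 and 0.19 at 20 weeks, beside 0.10, 0.14, 0.02 and 0.06 for the 11696 genes with an expressed probe set. At 8 weeks all 10 differences were above 0 and at 20 weeks 6 were, beside 60.5% and 60.2% of the genes with an expressed probe set, so the 20-week count was that of the background.

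Without mouse 3 of the 20-week group, the counts were 3 (Dst, Pkp2, Pkp4), 5 (those and Jup and Plec), 3 (Dst, Pkp2, Pkp4) and 2 (Dst, Pkp4), and the shares of all genes that rose were 5.14%, 13.3%, 4.11% and 6.23%. Of the 11696 genes with an expressed probe set, 928, 2389, 742 and 1132 rose. No member fell at 20 weeks in this setting either, against 2.65% of all genes. Leaving out mouse 4 of the 4-week group, the lowest of its age for 9 of the 10 members, left Dst alone at 12 weeks, where 2.44% of all genes rose. No member changed between later ages, where few genes did: 0.0055% from 8 to 12 weeks, 0.0055% from 12 to 16, 0.0275% from 16 to 20 and 0.83% from 12 to 20 weeks, in either direction.

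**Figure D2:**
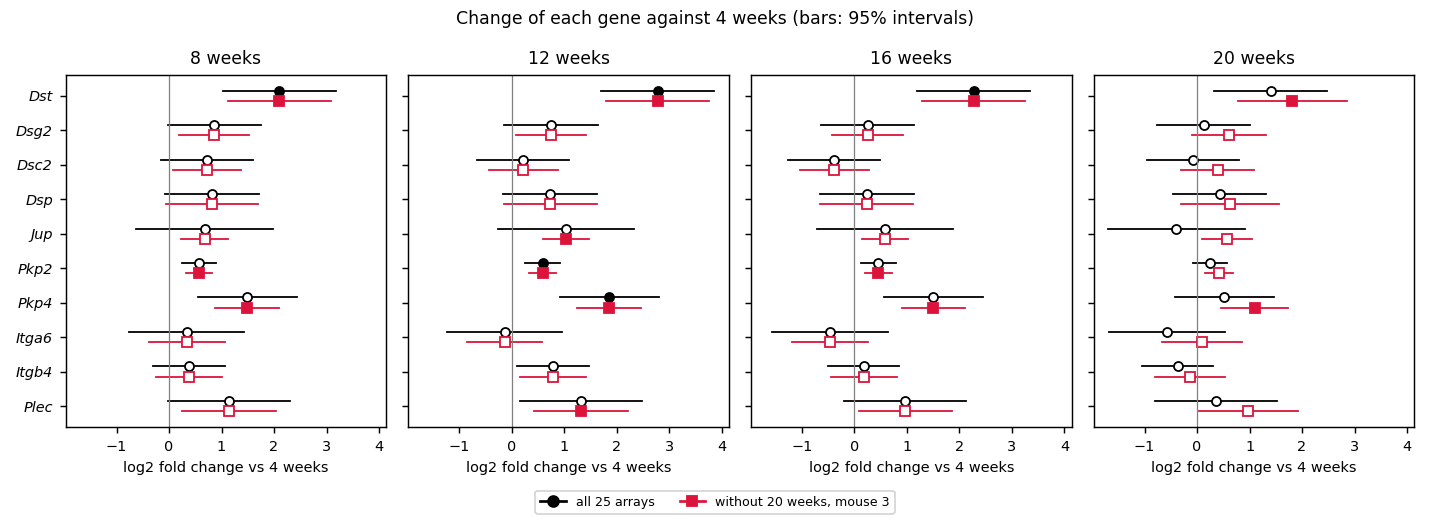
Log2 fold change against 4 weeks (x axis) with 95% intervals, for the 10 genes in 1 panel per later age, for all 25 arrays (black circles) and without mouse 3 at 20 weeks (red squares), filled where the adjusted p was under 0.05. Dst lies farthest right at each age, with 2.10, 2.78, 2.27 and 1.40 over all arrays, and leaving out mouse 3 narrows the interval of Jup at 12 weeks from an SE of 0.63 to 0.21.

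Taking all 5 ages at once, 2 members passed the F-test for any change with age, Dst (adjusted p = 0.0153) and Pkp4 (adjusted p = 0.0496), where 4.66% of genes did. Pkp2 had an adjusted p of 0.0793, Itgb4 0.188 and the others 0.435 to 0.638. The B-statistic, the log odds that a polynomial term of age differs from 0, was above the threshold of 1.5 for 1 member, Dst (2.36 for the quadratic term), and for 1.92% of genes. For Pkp4 and Pkp2 the quadratic term was the highest as well, at 1.33 and -0.12.

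Of the armadillo proteins, Pkp4, a plakophilin of desmosomes and of other cell contacts, had levels of 9.23, 8.65, 8.65, 7.45 and 8.62 in the 4-week mice. At 12 weeks they were 10.25, 10.60, 10.22, 10.43 and 10.38. The 8-week (9.57 to 10.47) and 16-week mice (9.78 to 10.39) lay above every 4-week mouse as well, while at 20 weeks the range was 6.72 to 10.42. Pkp4 rose at 12 weeks by 1.86 (SE 0.45, adjusted p = 0.0159), and the differences of 1.49 at 8 weeks and 1.51 at 16 weeks did not pass (adjusted p = 0.0925 and 0.0752). The 12-week call was lost without mouse 4 of the 4-week group (1.59, adjusted p = 0.0611). At 20 weeks the difference was 0.52 (adjusted p = 0.759) with mouse 3 and 1.09 (adjusted p = 0.0297) without it.

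Pkp2, the plakophilin of simple epithelia and of the heart, had 4-week levels of 6.98, 6.64, 6.72, 6.16 and 7.004. The 12-week levels were 7.18, 7.35, 7.18, 7.38 and 7.35, all above these. It rose by 0.59 (SE 0.16, adjusted p = 0.0268) at 12 weeks, and the 8-week mice, from 7.11 to 7.48, did not overlap the 4-week mice though the difference of 0.57 missed the threshold (adjusted p = 0.059). The 12-week call was lost in 8 of 37 settings, among them the mean of all 4 probe sets of the gene (0.38, adjusted p = 0.0603).

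Jup, plakoglobin, which is shared by desmosomes and adherens junctions, had levels of 9.79, 9.39, 9.17, 8.31 and 9.02 at 4 weeks and of 10.05, 10.22, 10.11, 10.20 and 10.27 at 12 weeks. The ages did not overlap, yet the difference of 1.03 did not pass (SE 0.63, adjusted p = 0.389). At 20 weeks mouse 3 had 4.89 and the other 4 mice 9.28 to 10.05. Without that array the SE at 12 weeks was 0.21 and the adjusted p 0.00258, and the 20-week difference went from -0.39 to 0.57.

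Of the plakins, Plec had 4-week levels of 8.54, 8.71, 7.81, 5.98 and 7.87 and 12-week levels of 8.68, 9.24, 9.15, 9.18 and 9.25. Mouse 1 of 12 weeks lay just below mouse 2 of 4 weeks, and the other 12-week mice lay above all 4-week mice. The difference of 1.32 did not pass with all arrays (SE 0.56, adjusted p = 0.172) and passed without mouse 3 of 20 weeks (SE 0.43, adjusted p = 0.0392). Dsp ran from 8.76 to 10.28 at 4 weeks and from 10.09 to 10.55 at 12 weeks, with a difference of 0.73 (adjusted p = 0.365).

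The desmosomal cadherins did not pass at any age. Dsg2, the desmoglein of simple epithelia, had levels of 9.03, 8.87, 8.53, 7.91 and 8.60 at 4 weeks. At 12 weeks they were 9.38, 9.51, 9.12, 9.33 and 9.33, above each 4-week mouse, for a difference of 0.75 (SE 0.43, adjusted p = 0.351). Dsc2, the desmocollin with which it is paired in such epithelia, ran from 7.23 to 8.30 at 4 weeks, 8.12 to 9.22 at 8, 7.80 to 8.76 at 12, 7.07 to 8.20 at 16 and 6.01 to 9.24 at 20 weeks, each overlapping the 4-week range. Its differences from 4 weeks were 0.72, 0.22, -0.38 and -0.08.

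The integrin chains did not pass either. Itgb4 had levels of 4.77, 5.41, 4.99, 4.78 and 5.33 at 4 weeks and of 5.89, 5.68, 6.09, 5.48 and 6.08 at 12 weeks, which did not overlap, with a difference of 0.79 (SE 0.33, adjusted p = 0.161). From 12 to 20 weeks it differed by -1.16 (adjusted p = 0.0928). Itga6 had levels of 10.71, 9.93, 9.91, 9.15 and 10.22 at 4 weeks and of 9.75, 9.90, 9.82, 9.99 and 9.77 at 12 weeks, inside the 4-week range, with a difference of -0.14 (SE 0.53, 95% interval -1.24 to 0.96). The integrin is built from both chains, and their differences were compared after these values were seen. Itgb4 less Itga6 was higher at 12 than at 4 weeks by 0.92 (exact permutation p = 0.0159, two-sided), with ranges that overlapped, and Dsg2 less Dsc2 by 0.53 (exact permutation p = 0.0079, the smallest possible), with ranges that did not. Both were at 0.0159 after adjustment over the pair of tests, which does not cover the choice of these pairs, so the p-values only describe the values seen. The probe sets of Itga6 went opposite ways. From 4 to 12 weeks the mean of 1422444_at went from 10.60 to 10.01 and that of 1422445_at from 9.37 to 9.68.

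**Figure D3:**
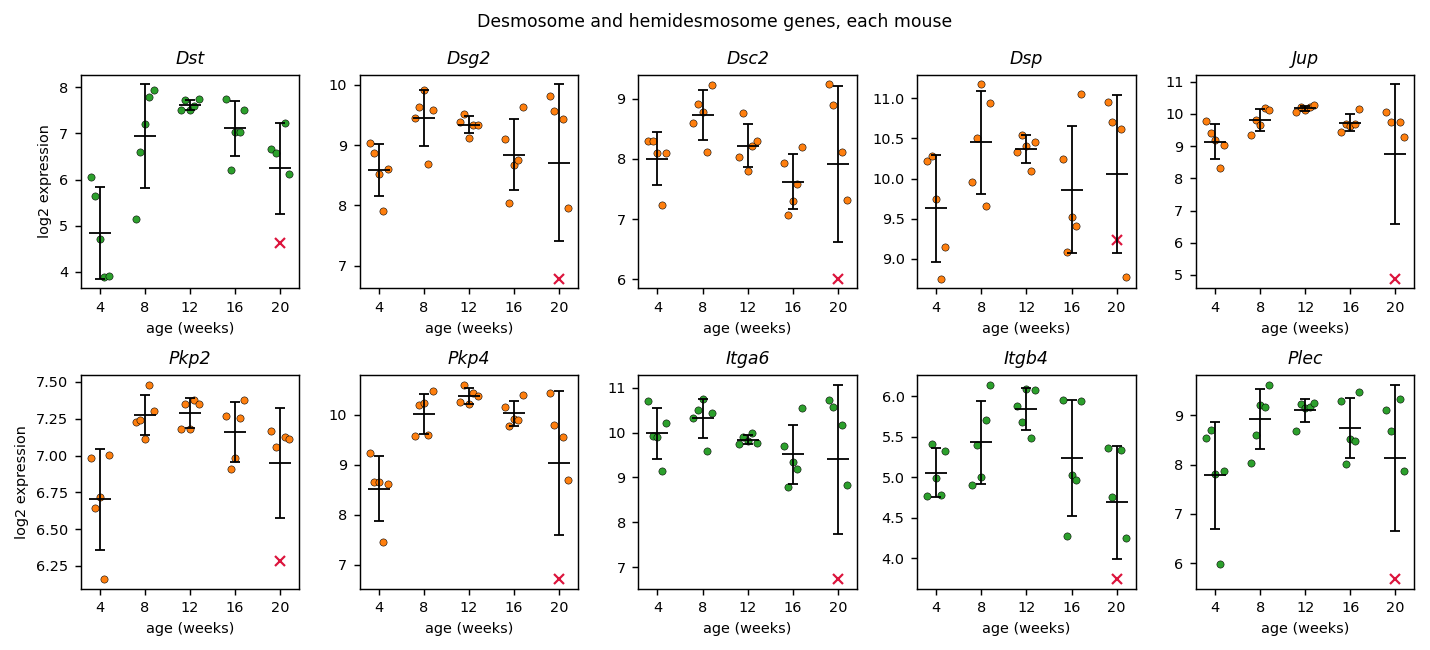
Log2 expression (y axis, own scale for each gene) of the 10 genes in each mouse against age in weeks, desmosome genes in orange and hemidesmosome genes in green, with mean and SD of 5 mice as bars and mouse 3 at 20 weeks as a red cross. The 12-week mice are the most closely spaced for every gene, and the cross is the lowest 20-week value for all but Dsp.

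Tested as single probe sets among 34958, 4 of the 28 rose at 8 weeks, 4 at 12, 5 at 16 and 0 at 20 weeks, where 1.03%, 3.96%, 1.32% and 0.701% of all probe sets did. They belonged to 4 genes. Dsg2 was called by 1439476_at, the brightest of its 6 probe sets (mean 11.96), with log2 fold changes of 0.79, 0.82 and 0.82 at 8, 12 and 16 weeks (adjusted p = 0.00686, 0.00272 and 0.00345), and at 16 weeks also by 1449741_at (0.86, adjusted p = 0.0413). Pkp2 was called by 1449799_s_at (1.01, 1.05 and 0.90, adjusted p = 0.03, 0.0117 and 0.0438) and Pkp4 by 1452209_at (1.41, 1.82 and 1.49, adjusted p = 0.0375, 0.00343 and 0.0188). The fourth was 1423626_at of Dst. At 8 weeks all 23 expressed probe sets were above 0, with a median of 0.79, and at 12 weeks 22 were. The exception was 1422444_at of Itga6 (-0.59 at 12 weeks), while its other probe set, 1422445_at, was at 0.32. At 16 weeks 16 of the 23 were above 0 and at 20 weeks 17. Of the genes with an expressed probe set, 60.5%, 62.0%, 52.6% and 60.2% were above 0 at the 4 ages. Probe sets of a gene are repeated readings of the same mice.

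The probe sets of a gene differed in how far mouse 3 of 20 weeks stood from the other mice. Of the 23 expressed probe sets, 19 were lower in it than in each other 20-week mouse. The difference from the mean of the other 4 had a median of -2.04 over all 23 and ran from -5.55 for 1434610_at of Plec to 1.02 for 1435493_at of Dsp. In Dsg2 it was -5.10 for 1425619_s_at and -0.10 for 1439476_at.

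**Figure D4:**
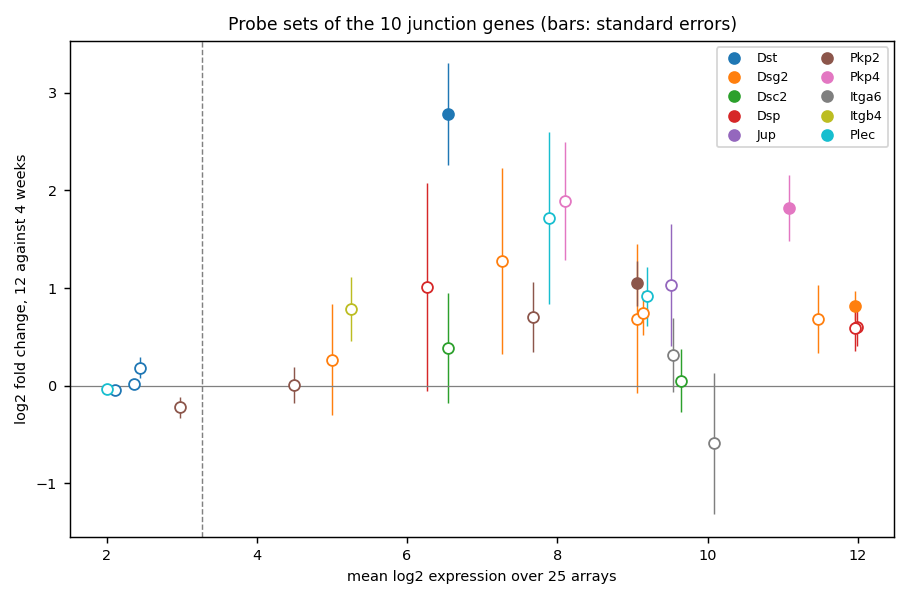
Log2 fold change from 4 to 12 weeks (y axis, bars are standard errors) of the 28 probe sets against their mean log2 expression over 25 arrays (x axis), coloured by gene and filled where the adjusted p was under 0.05. The dashed line is the median of all probe sets (3.27), the 5 probe sets left of it lie between -0.22 and 0.19, and the 4 filled points are of Dst, Pkp4, Pkp2 and Dsg2.

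Across the 25 mice, the level of Dst ran with that of 7 of the other 9 members (Benjamini-Hochberg over the 9 relations, 100000 permutations). The share of all genes that would pass the same test was not computed, so this count is not shown to be particular to the members. The permutations exchanged mice freely between ages. A change with age shared with Dst can therefore give a small p without any relation between mice of the same age. These p-values do not test such a relation. For Plec Pearson's r was 0.84 (adjusted p = 4e-05) and Spearman's rho 0.85 (adjusted p = 2e-05), where the unadjusted p of both, 1e-05, is the smallest these permutations can give. For Pkp4 r was 0.84 and rho 0.79, for Pkp2 0.79 and 0.83, for Jup 0.64 and 0.80, for Itgb4 0.63 and 0.78, for Dsp 0.61 and 0.52, and for Dsg2 0.60 and 0.49. Their adjusted permutation p-values were at most 0.00226 for r and 0.0195 for rho. Dsc2 (r = 0.38, rho = 0.28) and Itga6 (r = 0.30, rho = 0.067) did not pass (adjusted permutation p = 0.0696 and 0.142 for r). Without 4-week mice 4 and 5, the farthest from the median of Dst, r ran from 0.36 for Dsc2 to 0.82 for Plec.

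Within ages the members moved together from mouse to mouse. With the mean of each age removed, r between Dst and the others was 0.56 to 0.85 (0.35 to 0.81 without mouse 3 of 20 weeks), and all 45 pairs of members had r above 0, with a median of 0.74, from 0.39 for Dsp and Pkp2 to 0.97 for Dsg2 and Itga6. Without mouse 3 of 20 weeks the median was 0.60. The same was not computed for pairs of other genes, so these values are not shown to be particular to the members. No p-value was computed for r with the age means removed. The array with the lowest upper quartile of its age was also the lowest for 9 of the 10 members in 3 ages, namely mouse 4 at 4 weeks (5.34), mouse 2 at 16 weeks (5.20) and mouse 3 at 20 weeks (5.19). The upper quartiles ran from 5.34 to 5.75 at 4 weeks and from 5.69 to 5.93 at 12 weeks. With this quartile as a covariate, the 12-week log2 fold change was 2.09 for Dst (adjusted p = 0.00379), 1.13 for Pkp4 (adjusted p = 0.0128) and 0.37 for Pkp2 (adjusted p = 0.0658). With the Gapdh difference as a covariate and mouse 3 of 20 weeks left out, it was 1.46 for Pkp4 (adjusted p = 0.000308) and 0.54 for Pkp2 (adjusted p = 0.0122).

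**Figure D5:**
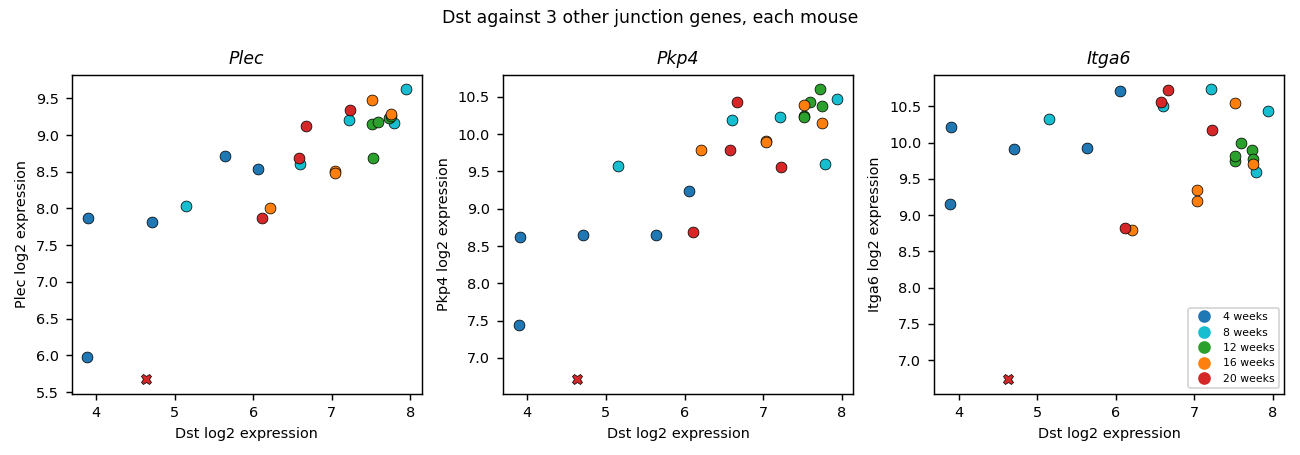
Log2 expression of Plec, Pkp4 and Itga6 (y axes) against that of Dst (x axis) in the 25 mice, coloured by age, with mouse 3 at 20 weeks as a cross. Plec (r = 0.84) and Pkp4 (r = 0.84) follow Dst more closely than Itga6 does (r = 0.30).

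The genes whose pattern over the 25 arrays was most like that of Dst, by Pearson's r among 11696 genes, were D5Ertd579e (0.93), Inpp5a, an inositol phosphatase (0.93), Slc2a1, the glucose transporter GLUT1 (0.92), Nrd1, the protease nardilysin (0.91), and Rrp1, which takes part in ribosomal RNA processing (0.91). All 5 had their lowest age mean at 4 weeks and their highest at 12 weeks, as in Slc2a1 with 6.95, 8.04, 8.52, 8.06 and 7.79 at the 5 ages. No member was among them.

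Of the other genes of these junctions, 30 were measured, and 0, 3, 0 and 0 rose at 8, 12, 16 and 20 weeks, with none falling. At an unadjusted p under 0.05, 9, 16, 1 and 1 were past the threshold, where the shares of all genes were 14.0%, 20.7%, 14.4% and 12.4%. Without mouse 3 of 20 weeks 4, 10, 1 and 1 rose, where 5.14%, 13.3%, 4.11% and 6.23% of all genes did. Their median log2 fold changes were 0.42, 0.48, 0.16 and 0.10. At 12 weeks Pkp1, the plakophilin of stratified epithelia, rose by 0.91 (adjusted p = 0.0378), Perp, a membrane protein of desmosomes, by 0.74 (adjusted p = 0.0179), and Nectin2, an adhesion molecule of adherens junctions, by 0.90 (adjusted p = 0.0435). By group, 3 of 5 armadillo proteins (Pkp1, Pkp2 and Pkp4) and 1 of 6 plakins (Dst) rose at 12 weeks. None of 6 desmosomal cadherins, 4 hemidesmosome membrane proteins, 2 laminin-332 chains (the ligand of the hemidesmosome) and 7 epithelial keratins did, with medians of 0.09, 0.47, 1.10 and 0.53. Without mouse 3 of 20 weeks, 5 of the 7 keratins (Krt7, Krt8, Krt14, Krt18 and Krt19) and 1 of the 2 laminin chains (Lamb3) rose at 12 weeks, and still none of the cadherins or hemidesmosome membrane proteins.

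Markers of other cells moved over the same ages. The 7 genes listed as markers of basal and myoepithelial cells were all expressed. Their summed level (log2 of the sum) ran from 12.02 to 13.35 in the 4-week mice and from 13.46 to 13.64 in the 12-week mice, without overlap. Of them 1 rose at 12 weeks, Cnn1, a calponin of contractile cells (1.91, adjusted p = 0.0308). Without mouse 3 of 20 weeks 4 did (Cnn1, Krt14, Myh11 and Mylk), as did 3 of the 6 markers of salivary epithelium, against 0 with all arrays. Without that mouse 13.3% of all genes rose at 12 weeks, and 2389 of the 11696 genes with an expressed probe set. The summed level of the salivary epithelium markers ran from 13.53 to 14.34 and from 14.37 to 14.53, the 6 of fibroblasts from 12.09 to 12.82 and from 11.24 to 11.80, and the dividing-cell markers (4 of 5 expressed) from 7.26 to 8.20 and from 4.98 to 5.15. The brightest epithelium marker was Krt18 (means of 13.06 and 13.56 at 4 and 12 weeks). Of the 6, 4 had a higher mean at 12 weeks, and Aqp5 (11.455 to 11.21) and Bhlha15 (8.69 to 8.24) a lower one. In the myoepithelial list Acta2 was the brightest (12.57 and 13.04) and made up most of the sum (means of 12.87 and 13.53). Krt5 (7.87 and 8.31) was not called, and Trp63 stayed level (3.90 at both ages). Whether the contractile genes of this list read myoepithelial cells alone was not tested. The part of these shifts in the changes of Dst, Pkp4 and Pkp2 was not tested. Of the cells that use other forms of dystonin, skeletal muscle had 5 of 7 markers not expressed (Ckm, Myh1, Mylpf, Tnnt3 and Actn2), and its sum was 4.39 to 4.55 at 4 weeks and 4.46 to 4.58 at 12 weeks. The Schwann and nerve markers (2 of 4 expressed, with Nefl and Nefm not) ran from 6.88 to 7.91 and from 7.03 to 7.43. The 2 expressed went opposite ways, the mean of Sox10 from 6.76 to 6.31 and that of Mbp from 5.90 to 6.21. Their sum therefore does not show a steady nerve content. With all arrays, 2 of 10 granular duct markers rose at 12 weeks and 1 fell, and 2 of 5 endothelium markers fell. So did 4 of 6 fibroblast and 3 of 5 dividing-cell markers. Over all genes 5.66% rose and 1.36% fell. No parotid, sublingual, lymphocyte or macrophage marker passed at that age.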

How the data were processed

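The deposited table gives log2 values of 45101 probe sets on each array, as made by the authors. The methods name GCRMA for these values and the submitters' processing notes name RMA. They were used as deposited, between 0.13 and 16.94. Of 35890 annotated probe sets, the 34958 with 1 gene symbol were kept (34754 with a gene ID matched, 204 not), and 932 with several symbols, among them 1 of Plec, and 9211 unlisted ones were left out. Expressed probe sets of a gene were averaged, and all of them where none was expressed.

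All 25 arrays were fitted together with limma 3.58.1 (R 4.3.3), and p-values of each contrast were adjusted over all 18194 genes (Benjamini-Hochberg). Words such as rose, fell or passed stand for a two-sided adjusted p under 0.05. B-statistics used a prior share of 0.01. Permutation tests used Python 3.11.15 and scipy 1.17.1. Two-sided 95% intervals come from the fit. The fit was tested on simulated data. Members, lists and tests were chosen with earlier results of these data known. Named were the members, all probe sets of Dst, other junction genes past the threshold, and the 5 genes most like Dst. Cnn1 and the keratin, laminin and myoepithelial genes that rose without mouse 3 of 20 weeks were named after their values were seen. The number of mice limits the precision. Scan batches are not given in the sources used here. Alternatives covered probe set summary, dim genes, normalization, array weights, array quality, the prior, the replicate number and each array left out. The Gapdh covariate was added after seeing the data. The planned test between Dst probe sets was not run, since 1 is expressed.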

Additional observations from a re-analysis of the deposited data

Results flagged for a closer look

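Of 50 groups of 5 mice (10 genes at 5 ages), 4 held a mouse whose gap to the others took up more than 0.71 of the group's range. Chance gives such a mouse in about 1 in 20 groups. Dsc2 was 7.23 in mouse 4 at 4 weeks, beside 8.09 to 8.30 in the others. Jup was 4.89 in mouse 3 at 20 weeks, beside 9.28 to 10.05, and Pkp2 was 6.29 in the same mouse, beside 7.06 to 7.16. Plec was 8.68 in mouse 1 at 12 weeks, beside 9.15 to 9.25. Mouse 4 at 4 weeks and mouse 3 at 20 weeks had the lowest upper quartiles of their ages (5.34 and 5.19), as had mouse 1 at 12 weeks (5.69).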

How the results depend on the processing

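Dst at 12 weeks was called in all 37 settings, with log2 fold changes from 0.74, with its 3 dim probe sets averaged in, to 3.09 and adjusted p from 4.07e-05 to 0.0108. Dst was called in 27 of 37 at 8 weeks, 36 at 16 and 4 at 20 weeks, Pkp4 at 12 weeks in 36 and Pkp2 at 12 weeks in 29. No member fell in any setting. Of 1480 values of single members, 1348 kept their direction and side of the threshold, 77 gained a call, 20 lost one and 35 changed sign, none of them called in the reported fit and 2 called under the alternative. The causes were not tested.

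The number of members that rose at 8, 12, 16 and 20 weeks was 1, 3, 1 and 0. It was 4, 4, 5 and 0 with the brightest probe set of each gene (1.86%, 6.83%, 2.28% and 1.14% of all genes). Among genes with an expressed probe set it was 2, 3, 2 and 0 (3.31%, 10.8%, 3.3% and 2.08% of those genes). Quantile normalization gave 2, 3, 3 and 0 (1.54%, 3.52%, 2.74% and 1.96% of all genes). Array weights gave 4, 8, 3 and 7 (6.84%, 20.5%, 8.61% and 13.5% of all genes). Without the 3 arrays of lowest correlation the counts were 5, 7, 4 and 7 (9.41%, 19.6%, 11.9% and 12.9%). The upper quartile as a covariate gave 0, 2, 3 and 0 (0.758%, 3.1%, 4.21% and 3.34%). With only the 2 ages compared, the counts were 0, 6, 0 and 0 (0.594%, 10.7%, 0.44% and 0.0495%). The difference between 3′ and 5′ Gapdh probe sets as a covariate, added after seeing the data, gave 5, 3, 2 and 1 (5.31%, 6.71%, 3.35% and 4.05% of all genes), and 7, 4, 3 and 0 with mouse 3 of 20 weeks left out as well (6.21%, 8.56%, 4.22% and 1.56%). In the reported fit 1.48%, 5.66%, 1.71% and 1.14% of all genes rose. Leaving out each mouse in turn gave 0 to 3 at 8 weeks, 1 to 5 at 12, 1 to 3 at 16 and 0 to 2 at 20 weeks, the highest in each case without mouse 3 of 20 weeks. Without that mouse 5.14%, 13.3%, 4.11% and 6.23% of all genes rose. With the replicate number as a block, the counts were 0, 3, 1 and 0 (1.31%, 5.24%, 1.57% and 0.945% of all genes). Mice of the same number did not deviate together (median r of -0.043 over 50 pairs, 0.0073 for different numbers), so the numbers do not pair the mice. A prior share of 0.05 raised the members past the B-statistic from 1 to 3, and all genes past it from 350 to 823.

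The probe sets of Dst that rose were 1, 1, 1 and 0. At 8 weeks 0 rose with the upper quartile as a covariate, and leaving out a mouse gave 0 to 1 at 8, 16 and 20 weeks. At 20 weeks 2 rose with array weights and 1 without the 3 arrays or with the Gapdh covariate. With array weights and without the 3 arrays, 1 of the dim probe sets fell at 12 weeks.

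Sign changes against 4 weeks were these. At 20 weeks array weights gave 0.34 for Dsc2, 0.22 for Itga6, 0.065 for Itgb4 and 0.55 for Jup (adjusted p = 0.0298), and leaving out the 3 arrays gave 0.75, 0.50, 0.094 and 0.71 (adjusted p = 0.0374). The brightest probe set gave 0.048 for Dsc2 at 20 weeks. Quantile normalization gave -0.15 for Dsc2 at 12 weeks and -0.095 for Dsg2 at 20 weeks. The upper quartile as a covariate gave -0.50 for Itga6, -0.055 for Itgb4 and -0.14 for Jup at 8 weeks, -0.47 for Dsc2 at 12 weeks and -0.11 for Dsg2 at 20 weeks. The Gapdh covariate gave -0.15 for Dsc2 at 12 weeks, and with mouse 3 left out -0.18 for it, -0.14 for Dsp at 16 weeks, and -0.069 for Dsg2, -0.42 for Dsp and 0.22 for Jup at 20 weeks. Leaving out each mouse gave -0.35 to 0.044 for Itga6 at 12 weeks, and at 16 weeks -0.064 to 0.43 for Dsp and -0.0046 to 0.42 for Itgb4. At 20 weeks it gave -0.41 to 0.39 for Dsc2, -0.15 to 0.60 for Dsg2, -0.91 to 0.090 for Itga6, -0.72 to 0.57 for Jup and -0.096 to 0.97 for Plec. Probe sets at the array's floor limit what can be said of Dst transcripts that they alone would detect.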
